A study of Mus musculus with 28 samples.

Results

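The genes described here are 8 BMP target and feedback genes, Id1, Id2, Id3, Id4, Smad6, Smad7, Smad9 and Bambi, chosen by name from the 54429 genes of a count table. All 8 were found in the table. In the cultures given BMP2, those placed in chondrocyte and osteoblast conditions, Smad9 and Smad6 stood furthest above proliferating cells. Smad9 went from 0.255 ± 0.0488 counts per 1000000 counts of the library after TMM scaling, which sets library totals on a common scale from the bulk of the genes (CPM; SD, n = 4), in proliferating cells at 21% O2 to 20.6 ± 2.49 (SD, n = 4) in chondrocyte and 22.9 ± 11.6 (SD, n = 4) in osteoblast cultures. Id1, Id2, Id3 and Smad7 rose in both conditions at both oxygen levels. Id4 did not rise in either and fell in chondrocyte cultures. At 0.5% O2 the chondrocyte and osteoblast cultures held more Smad9 than at 21% O2, whereas the libraries labelled hypoxic smooth muscle, which lacked the smooth muscle markers, held less of it than normoxic smooth muscle cultures.

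Bone morphogenetic proteins (BMPs) bind receptor kinases that phosphorylate Smad1, Smad5 and Smad9, and these enter the nucleus with Smad4 to switch on target genes. The ID genes code for proteins that bind basic helix-loop-helix transcription factors and keep them off DNA, and they are widely read as BMP targets. Smad6 and Smad7 code for inhibitory Smads that act back on the receptors, and Bambi codes for a receptor-like protein without a kinase domain that dampens the signal. The cranial neural crest is a migratory cell population of the embryo from which much of the face is built, and BMP signals take part in its formation of bone and cartilage.

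Polyadenylated RNA was sequenced from O9-1 cells, a mouse cranial neural crest line, in 28 libraries of 8 groups. Each of the 4 culture conditions was run at 21% O2 (normoxic, 4 libraries per group) and at 0.5% O2 (hypoxic, 3 libraries per group), and the study asked how low oxygen affects the differentiation of these cells. Proliferating cells were kept in medium conditioned by STO cells with 15% fetal calf serum, non-essential amino acids, beta-mercaptoethanol, 25 ng/ml bFGF and 5 ng/ml LIF. Osteoblast cultures had 10 days in alpha-MEM with 10% serum, beta-glycerophosphate, 0.1 µM dexamethasone and 100 ng/ml BMP2. Chondrocyte cultures had 3 days in that osteoblast medium and then 7 days as micromasses on Matrigel in alpha-MEM with 5% serum, insulin-transferrin-selenium, 0.1 µM dexamethasone, 10 ng/ml TGF-beta3 and 50 ng/ml BMP2. Smooth muscle cultures had 3 days in DMEM with 10% serum and no named growth factor. All groups share 1 cell line and penicillin and streptomycin. BMP2 was named only in the osteoblast and chondrocyte media, so its part and that of dexamethasone, serum level, base medium and culture time cannot be told apart. Nothing in the labels says that libraries of a group came from separate cultures, so p-values measure only the spread between these libraries.

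Library totals lay between 19869271 and 64693346 counts. The 3 hypoxic smooth muscle libraries stood apart: mitochondrial ribosomal RNA genes took 11.6% to 13.3% of their counts, against 0.0252% to 0.0889% in the other 25. The 4 smooth muscle markers (Acta2, Tagln, Cnn1, Myh11) summed to 28.5 to 42.3 CPM in them, beside 36.3 to 43.3 CPM in hypoxic proliferating and 3324 to 3758 CPM in normoxic smooth muscle libraries, so the label was not borne out by its markers, and these libraries are called hypoxic smooth muscle below only by their label. Cd68, a macrophage marker, reached 35.0 ± 2.01 CPM (SD, n = 3) there and 5.17 ± 0.208 (SD, n = 3) in hypoxic proliferating cells, while the general leukocyte marker Ptprc was near 0. The 6 osteoblast markers summed to 5720 to 9427 CPM in normoxic osteoblast cultures but to 36040 to 44800 CPM in normoxic chondrocyte cultures. That sum follows mainly Col1a1, with 10984516 counts over the 28 libraries, against 190384 for Ibsp, the next largest of the 6. The smooth muscle sums likewise follow mainly Acta2, with 1320528 counts, against 148783 for Tagln, the next largest. The smooth muscle markers, at 47.7 to 53.1 CPM in normoxic proliferating cells, summed to 3065 to 4684 CPM in normoxic osteoblast cultures, a range that holds that of the smooth muscle cultures, and to 1910 to 2290 CPM in chondrocyte cultures. The 5 low oxygen response markers summed to 1659 to 2387 CPM over all hypoxic libraries and to 139 to 896 CPM over all normoxic ones. Among the normoxic groups they were highest in chondrocyte cultures, at 523 to 896 CPM. They summed to 221 to 233 CPM in proliferating, 174 to 205 CPM in osteoblast and 139 to 153 CPM in smooth muscle cultures. Replicate 4 of the normoxic osteoblast group stood above replicates 1 to 3 in 8 of the 8 genes. In that library the 5 chondrocyte markers summed to 1446 CPM, against 179 to 196 CPM in replicates 1 to 3. The part of these features in the results below was not tested. In bulk libraries, fewer cells of a type and less RNA per cell cannot be told apart.

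In GENCODE M21 (mouse build GRCm38), Id1 is at chr2:152736251-152737410 (plus strand), Id2 at chr12:25093799-25097140 (minus strand), Id3 at chr4:136143497-136145755 (plus strand) and Id4 at chr13:48261228-48266026 (plus strand). Smad6 is at chr9:63953076-64022059 (minus strand) and Smad9 at chr3:54755582-54801257 (plus strand), and the places of Smad7 and Bambi are given with their values. Exons of Id4 share up to 171 bases with the antisense genes A330033J07Rik and Gm49291, and whether counting used the strand is not given in the sources used here, so reads from them cannot be told apart there. The other 7 genes overlap no annotated gene.

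The 250 bases before the RefSeq start (GRCm38.p6) were available for Id2, Id3, Id4, Smad6 and Smad9, 5 of the 8 genes. They are shown for Smad6 (chr9:64022060-64022309, minus strand) and Smad9 (chr3:54755332-54755581, plus strand), which moved together and furthest, and for Id4 (chr13:48260866-48261115, plus strand), which did not move with them. Capitals mark matches to the motifs searched on both strands.
Smad6: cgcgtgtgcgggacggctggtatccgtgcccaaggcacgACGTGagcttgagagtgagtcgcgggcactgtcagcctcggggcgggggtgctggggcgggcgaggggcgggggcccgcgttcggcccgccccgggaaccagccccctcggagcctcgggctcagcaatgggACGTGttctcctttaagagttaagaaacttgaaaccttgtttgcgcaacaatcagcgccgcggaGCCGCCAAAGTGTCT
Smad9: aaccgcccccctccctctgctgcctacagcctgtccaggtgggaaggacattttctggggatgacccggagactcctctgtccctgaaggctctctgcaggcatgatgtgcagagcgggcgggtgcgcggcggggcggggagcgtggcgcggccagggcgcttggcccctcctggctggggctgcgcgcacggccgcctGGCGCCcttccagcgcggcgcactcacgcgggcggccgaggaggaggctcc
Id4: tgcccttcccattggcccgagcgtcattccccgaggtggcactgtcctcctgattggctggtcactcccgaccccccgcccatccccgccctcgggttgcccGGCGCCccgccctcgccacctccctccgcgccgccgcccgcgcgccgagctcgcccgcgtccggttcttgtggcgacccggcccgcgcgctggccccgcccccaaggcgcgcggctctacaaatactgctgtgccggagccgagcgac
The motif GGCGCC, a GC-rich Smad-binding sequence, was found in Smad9 (51 to 46 bases before the start), Id4 (148 to 143) and Id2 (231 to 226), and in 9.54% of 27025 promoter windows of this length. The BMP response sequence, GGCGNC followed after 5 bases by GTCT (0.207% of windows), and the Smad palindrome GTCTAGAC (0.174%) were in none of the 5 windows. Its looser form, GNCGNC followed after 5 bases by GTCT and held by 0.548% of windows, ended directly at the start of Smad6 (15 to 1 bases before it). ACGTG, the core of the hypoxia response sequence, was found in Smad6 at 211 to 207 and at 79 to 75 bases before the start, and in 16.6% of windows. The Id2 and Id3 windows overlap exons that GENCODE M21 gives to Id2 and Id3 themselves, so part of their bases lies inside the annotated gene. These matches describe the letters only.

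Each differentiated group was set against proliferating cells kept in the same oxygen, and a gene was called when its adjusted p (edgeR quasi-likelihood test, Benjamini-Hochberg over all genes tested) was under 0.05. At 21% O2, 7 of the 8 genes were called higher and 1 lower in chondrocyte cultures, where 74.9% of all genes tested were called, 37.7% higher and 37.2% lower. In osteoblast cultures 6 of 8 were called higher and none lower (78.7% of all genes called, 40.9% higher and 37.8% lower), and in smooth muscle cultures 5 higher and 1 lower (79.7% called, 40.8% higher and 38.9% lower). Their median log2 fold changes were 2.56, 1.97 and 1.21, against -0.0029, 0.07 and 0.03 over all genes tested. At 0.5% O2, 7 of 8 were called higher and 1 lower in chondrocyte cultures (69.5% called, 34.9% higher and 34.6% lower) and 7 of 8 higher in osteoblast cultures (71.3% called, 36.2% higher and 35.1% lower). In hypoxic smooth muscle cultures 3 of the 7 genes tested were higher and 1 lower (70% of all genes called, 33.8% higher and 36.2% lower), and Smad9 was too low there to be tested. The 3 comparisons at each oxygen level share their proliferating libraries.

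**Figure D1:**
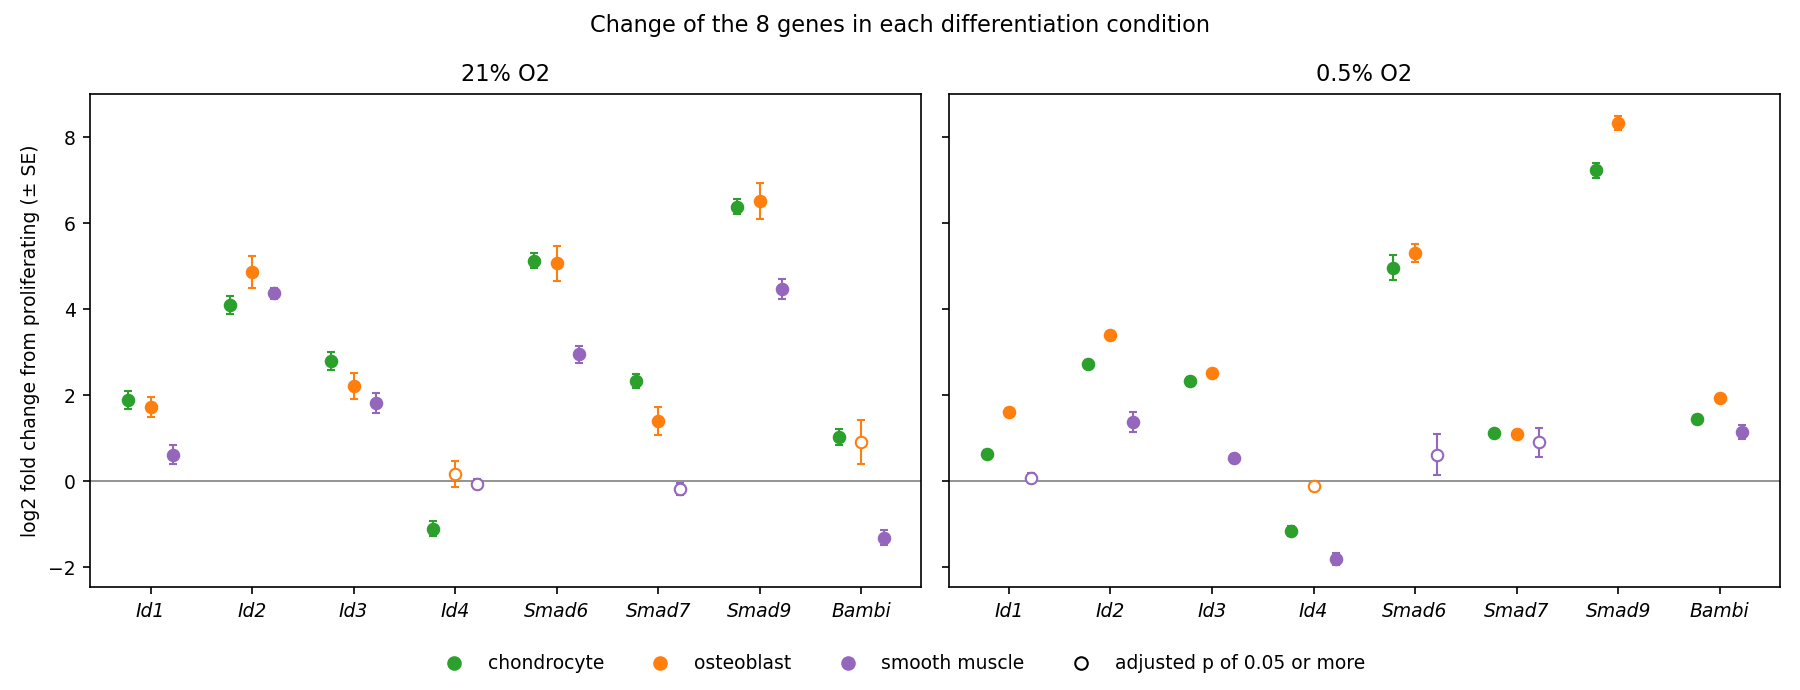
Log2 fold change from proliferating cells kept in the same oxygen (y axis, bars are SE) for each of the 8 genes (x axis) in chondrocyte, osteoblast and smooth muscle cultures. Filled points have an adjusted p under 0.05, and Smad9 was not tested in hypoxic smooth muscle cultures. The largest values are those of Smad9, up to 8.33 in hypoxic osteoblast cultures, and Id4 has no point called higher.

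Id3, the ID gene with the highest group mean per kilobase in every group, rose from 58.3, 66.0, 63.2 and 30.5 CPM in normoxic proliferating libraries to 372, 360, 360 and 347 CPM in chondrocyte libraries. Osteoblast libraries held 206, 186, 196 and 380 CPM and smooth muscle libraries 192, 168, 170 and 208 CPM. All 12 differentiated libraries lay above all 4 proliferating ones. The log2 fold changes were 2.80 ± 0.21 (SE) in chondrocyte, 2.21 ± 0.30 in osteoblast and 1.81 ± 0.23 in smooth muscle cultures (edgeR adjusted p = 1.29e-06, 8.64e-05 and 1.86e-04). At 0.5% O2 the values were 70.7, 75.6 and 66.8 CPM in proliferating, 297, 386 and 384 CPM in chondrocyte and 398, 406 and 414 CPM in osteoblast libraries. Hypoxic smooth muscle libraries, at 90.5, 101 and 91.9 CPM, lay only a little above the proliferating ones, with a log2 fold change of 0.53 ± 0.09 that lost its call when fitted with all 8 groups (adjusted p = 0.119).

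Id1, the ID gene most often used as a BMP readout, had the same order of groups as Id3 at 21% O2, with smaller changes. Normoxic proliferating libraries held 19.4, 20.5, 18.3 and 9.03 CPM, chondrocyte libraries 64.1, 61.5, 56.7 and 53.4 CPM and osteoblast libraries 52.5, 46.3, 46.0 and 69.4 CPM. Both differentiated groups lay wholly above the proliferating one, with log2 fold changes of 1.88 ± 0.21 and 1.72 ± 0.24 (SE). In normoxic smooth muscle cultures (24.9, 21.7, 24.5 and 28.8 CPM) the change was 0.61 ± 0.22, with edgeR adjusted p = 0.0261, a call that was lost without smooth muscle replicate 4 (adjusted p = 0.0743) and without a filter (adjusted p = 0.0911). At 0.5% O2, Id1 held 32.9, 30.1 and 27.2 CPM in proliferating, 42.6, 52.3 and 46.1 CPM in chondrocyte and 94.2, 94.6 and 87.3 CPM in osteoblast libraries. The hypoxic osteoblast libraries were the highest of all 28. The hypoxic log2 fold changes were 0.63 ± 0.10 in chondrocyte and 1.61 ± 0.09 in osteoblast cultures, while smooth muscle libraries (27.6, 31.7 and 27.5 CPM) overlapped the proliferating ones.

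Id2 had the lowest starting level of the ID genes and their largest rise. It held 2.80, 2.96, 2.98 and 1.65 CPM in normoxic proliferating libraries, 56.7, 42.0, 35.1 and 36.4 CPM in chondrocyte, 58.6, 51.4, 53.0 and 132 CPM in osteoblast and 51.8, 51.6, 59.0 and 49.0 CPM in smooth muscle libraries. All 12 differentiated libraries lay above the proliferating ones, and the smooth muscle libraries, from a medium in which no BMP2 is named, overlapped those of both other conditions. Log2 fold changes were 4.09 ± 0.21 in chondrocyte, 4.87 ± 0.38 in osteoblast and 4.37 ± 0.13 (SE) in smooth muscle cultures (edgeR adjusted p = 2e-08, 1.68e-06 and 1.59e-13). At 0.5% O2 proliferating libraries held 10.1, 10.1 and 11.0 CPM, chondrocyte libraries 63.3, 68.2 and 77.03 CPM and osteoblast libraries 114, 104.8 and 113 CPM. The hypoxic smooth muscle values were spread widely at 30.8, 14.1 and 29.3 CPM, all above the proliferating ones (log2 fold change 1.37 ± 0.24).

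Id4 behaved unlike the other ID genes. Normoxic proliferating libraries held 65.7, 65.3, 64.0 and 93.3 CPM and chondrocyte libraries 28.2, 27.3, 28.4 and 42.8 CPM, a fall of 1.11 ± 0.18 (SE) on the log2 scale without overlap (edgeR adjusted p = 2.48e-04). Osteoblast libraries held 53.8, 58.7, 58.0 and 140 CPM and overlapped the proliferating ones. Their log2 fold change was 0.16 ± 0.31 with all 4 libraries, and -0.33 without osteoblast replicate 4 (adjusted p over 0.05). With replicates 1 to 3 alone in both groups it was -0.17 with edgeR adjusted p = 0.0013. Smooth muscle libraries, at 65.6, 66.0, 61.4 and 71.4 CPM, overlapped the proliferating ones too. At 0.5% O2 Id4 held 95.1, 92.9 and 87.4 CPM in proliferating, 47.7, 42.9 and 33.4 CPM in chondrocyte and 98.4, 86.3 and 68.3 CPM in osteoblast libraries. The hypoxic osteoblast change of -0.13 ± 0.11 did not pass, but did without osteoblast replicate 1 (-0.25, edgeR adjusted p = 0.0225) and with library size scaling (-0.35). Hypoxic smooth muscle libraries, at 18.3, 26.8 and 27.2 CPM, fell by 1.82 ± 0.13 on the log2 scale and were the lowest of all groups.

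The changed make-up of the ID family is seen when levels are taken per length, as CPM per kb of merged exons. By group mean Id3 was the largest part in every group, from 42.3% ± 1.48 (SD, n = 3) of the family in hypoxic proliferating to 72.5% ± 1.35 (SD, n = 4) in normoxic chondrocyte cultures. Id4 went from 30.4% ± 12.3 (SD, n = 4) in normoxic proliferating cells to 2.99% ± 0.804 (SD, n = 4) in chondrocyte cultures. In replicate 4 of the normoxic proliferating group Id4 was the largest part, at 48.7% against 34.3% for Id3. Id2 went from 1.63% ± 0.184 to 13.4% ± 1.83 (SD, n = 4 each) between normoxic proliferating and smooth muscle cultures. The family sum was 64.7 ± 10.2 CPM per kb (SD, n = 4) in normoxic proliferating and 277 CPM per kb in normoxic chondrocyte cultures. It reached 373 CPM per kb in hypoxic osteoblast cultures.

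**Figure D2:**
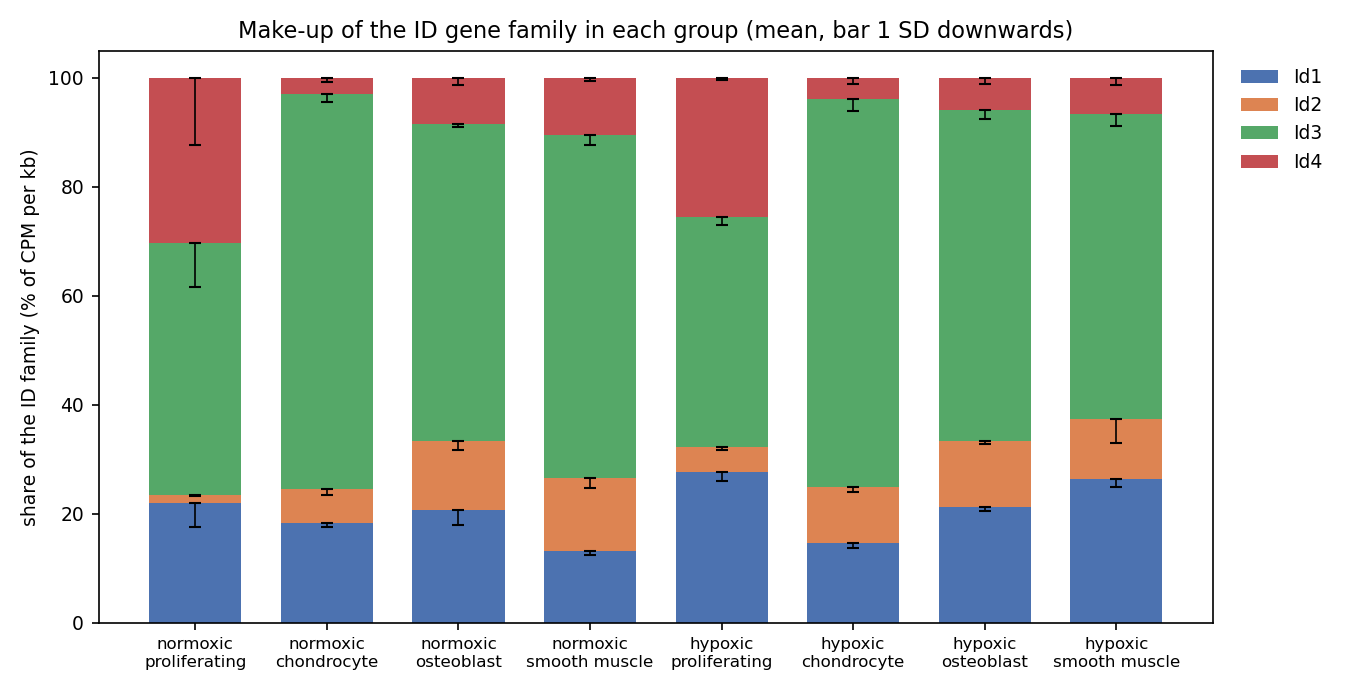
Share of each ID gene in the summed CPM per kb of Id1, Id2, Id3 and Id4 (y axis, percent) in the 8 groups (x axis). Bars are means over 4 normoxic or 3 hypoxic libraries and the error bar at the top of each part is 1 SD, drawn downwards. Mean shares of Id3 lie between 42.3% and 72.5%, and Id4 shrinks from 30.4% in normoxic proliferating to 2.99% in normoxic chondrocyte cultures.

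Smad6, whose product binds BMP receptors and blocks Smad1 and Smad5, was nearly silent in proliferating cells. It held 2.83, 1.80, 1.82 and 2.56 CPM in normoxic proliferating, 89.4, 73.6, 67.6 and 62.8 CPM in chondrocyte, 49.1, 49.2, 55.6 and 133 CPM in osteoblast and 15.0, 15.3, 13.7 and 22.2 CPM in smooth muscle libraries. All differentiated libraries lay above all proliferating ones, and both groups given BMP2 lay above the smooth muscle group. The log2 fold changes were 5.13 ± 0.17 in chondrocyte, 5.07 ± 0.41 in osteoblast and 2.95 ± 0.19 (SE) in smooth muscle cultures (edgeR adjusted p = 5.85e-10, 2.06e-06 and 2.27e-09). At 0.5% O2 proliferating libraries held 4.06, 3.34 and 1.78 CPM, chondrocyte libraries 77.7, 113 and 97.7 CPM and osteoblast libraries 125, 132 and 109 CPM. The hypoxic groups given BMP2 lay wholly above the proliferating one, with log2 fold changes of 4.96 ± 0.29 and 5.31 ± 0.20. Hypoxic smooth muscle libraries, at 6.83, 1.496 and 4.45 CPM, overlapped the proliferating ones (0.62 ± 0.47, adjusted p = 0.266), and passed without smooth muscle replicate 2 (1.00, adjusted p = 0.0329).

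Smad7, an inhibitory Smad that acts on both the BMP and TGF-beta branches (chr18:75367529-75395935, plus strand), had a different pattern. Normoxic proliferating libraries held 21.8, 21.8, 22.6 and 13.1 CPM, chondrocyte libraries 108, 96.4, 89.7 and 84.2 CPM and osteoblast libraries 38.0, 33.0, 39.3 and 90.6 CPM. Log2 fold changes were 2.33 ± 0.16 in chondrocyte and 1.40 ± 0.33 (SE) in osteoblast cultures (edgeR adjusted p = 2.72e-07 and 0.00322). On leaving out 1 library the osteoblast value ranged from 0.90 to 1.55. Smooth muscle libraries, at 15.7, 18.2, 15.5 and 17.7 CPM, overlapped the proliferating ones (-0.19 ± 0.14), and lay below them without proliferating replicate 4 (-0.35, adjusted p = 7.7e-04). At 0.5% O2 Smad7 held 61.8, 59.0 and 53.6 CPM in proliferating, 128, 127 and 126 CPM in chondrocyte and 135, 131 and 104.7 CPM in osteoblast libraries. Its hypoxic changes, 1.12 ± 0.07 and 1.09 ± 0.10, started from a higher proliferating level. In hypoxic smooth muscle cultures Smad7 varied from 58.1 to 86.5 and 153 CPM, with a change of 0.90 ± 0.34 just short of a call (adjusted p = 0.05004) that was called without any 1 of the 3 smooth muscle libraries (adjusted p 0.00115 to 0.0434).

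Smad9, the third of the Smads that carry BMP signals and itself a known target of the pathway, showed the largest changes of the 8. It held only 0.323, 0.257, 0.232 and 0.210 CPM in normoxic proliferating libraries (6 to 19 counts each). Chondrocyte libraries held 24.2, 18.9, 19.0 and 20.5 CPM, osteoblast libraries 17.1, 16.6, 17.6 and 40.3 CPM and smooth muscle libraries 4.63, 4.94, 6.21 and 6.48 CPM. No library of a differentiated group overlapped the proliferating ones, and the smooth muscle group lay wholly below both groups given BMP2. Log2 fold changes were 6.38 ± 0.17, 6.51 ± 0.41 and 4.47 ± 0.23 (SE) in chondrocyte, osteoblast and smooth muscle cultures (edgeR adjusted p = 1.92e-11, 3.96e-07 and 5.91e-11). At 0.5% O2 proliferating libraries held 0.228, 0.467 and 0.205 CPM, chondrocyte libraries 46.2, 45.1 and 45.2 CPM and osteoblast libraries 90.5, 98.3 and 102 CPM, and the changes were 7.23 ± 0.18 and 8.33 ± 0.17. In hypoxic smooth muscle cultures it held 0.150, 0 and 0.927 CPM, from 12 counts in all, at the level of proliferating cells. The low counts in proliferating cells limit the precision of these folds.

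Bambi, the pseudoreceptor gene (chr18:3507923-3516404, plus strand), rose in chondrocyte cultures at both oxygen levels and in osteoblast cultures at 0.5% O2. Normoxic proliferating libraries held 28.7, 28.8, 24.4 and 14.5 CPM and chondrocyte libraries 46.1, 50.9, 49.0 and 40.1 CPM (log2 fold change 1.02 ± 0.18, SE, edgeR adjusted p = 5.45e-04). Osteoblast libraries held 24.6, 23.5, 23.0 and 103 CPM. Replicate 4 alone carried the mean of that group: the change was 0.91 ± 0.51 (adjusted p = 0.127) with it and -0.02 without it. With replicates 1 to 3 alone in both groups it was -0.19 and was called lower (edgeR adjusted p = 0.0127), whereas in the fit to all 8 groups it was 0.85 and was called higher (adjusted p = 0.0323). Normoxic smooth muscle libraries, at 9.47, 9.10, 9.26 and 9.45 CPM, lay below all others and fell by 1.32 ± 0.18 on the log2 scale. At 0.5% O2 proliferating libraries held 13.3, 12.3 and 12.4 CPM, chondrocyte libraries 29.97, 35.0 and 38.4 CPM, osteoblast libraries 45.9, 48.0 and 51.4 CPM and smooth muscle libraries 32.0, 21.5 and 22.8 CPM. All 3 hypoxic differentiated groups lay above the proliferating one, by 1.44 ± 0.11, 1.93 ± 0.10 and 1.13 ± 0.17 on the log2 scale.

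**Figure D3:**
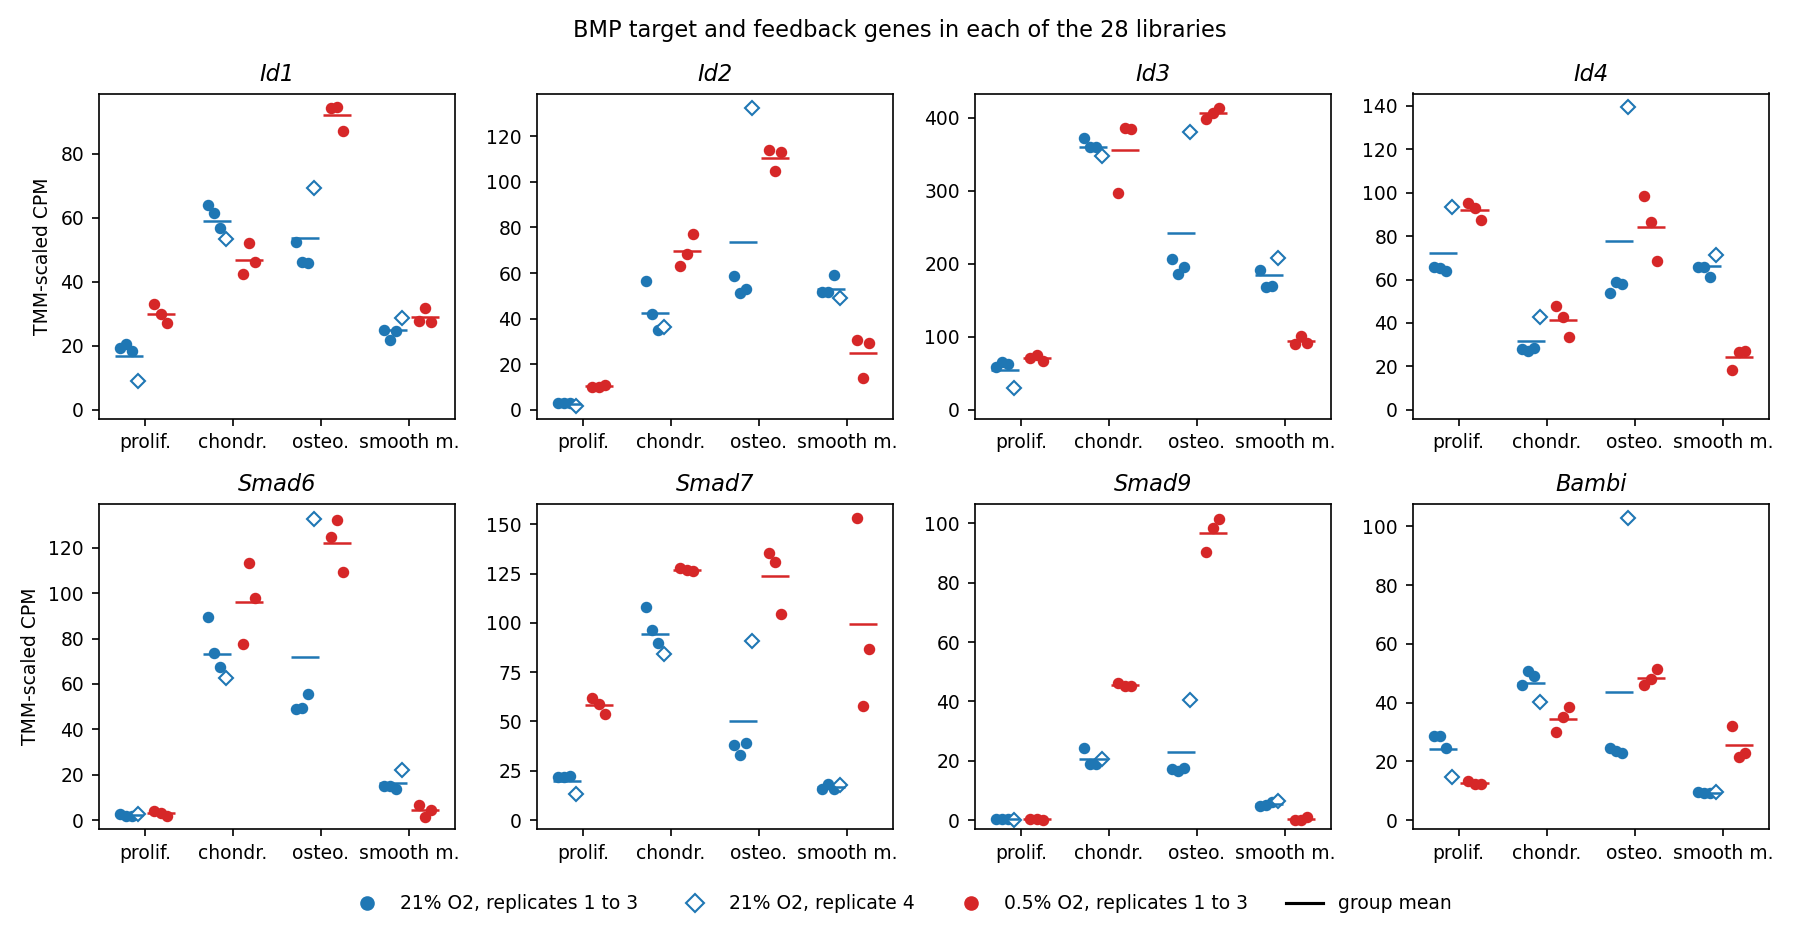
TMM-scaled CPM (y axis, linear) of each gene in every library of the 4 culture conditions (x axis), with 21% O2 in blue and 0.5% O2 in red. Open diamonds are replicate 4 of the normoxic groups and horizontal lines are group means. In the osteoblast condition the open diamond lies above the 3 other normoxic libraries in all 8 panels, for example at 103 against 23.0 to 24.6 CPM for Bambi.

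The changes from the proliferating state in hypoxic smooth muscle cultures depended on scaling. The 10 most abundant genes took 27.1% to 28.5% of the counts there, against 5.05% to 16.5% in the other 25 libraries. With library size in place of TMM scaling, the median log2 fold change of all genes tested moved from -0.07 to -1.35. Id1 (-1.21), Id3 (-0.75), Smad6 (-0.65), Smad7 (-0.37) and Bambi (-0.14) changed sign with it. Id2 (0.10) lost its call, and of the 7 genes tested none was called higher and 3 lower, where 83% of all genes were called and 12.4% were higher.

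The effect of oxygen within a culture condition was examined next. In proliferating cells at 0.5% O2, 4 of the 7 genes tested were called higher and 1 lower than at 21% O2 (65.4% of all genes called, 33.1% higher and 32.3% lower). Id2 was higher by 2.04 ± 0.17, Smad7 by 1.60 ± 0.16 and Id1 by 0.88 ± 0.25 (SE) on the log2 scale, each without overlap between the groups (edgeR adjusted p = 1.48e-07, 3.05e-05 and 0.0167). Bambi fell by 0.88 ± 0.22 (adjusted p = 0.00698, and 0.0534 in the fit to all 8 groups), and the Id1 call was lost without a filter (adjusted p = 0.0675). The Id4 difference of 0.41 ± 0.14 (adjusted p = 0.0340) overlapped between groups and missed the threshold without any 1 of 6 of the 7 libraries (adjusted p 0.0563 to 0.0889) and with library size scaling. Id3 (0.44 ± 0.26) passed only without normoxic replicate 4 (0.23, adjusted p = 7.27e-04), and Smad6 (0.51 ± 0.28) only without hypoxic replicate 3 (0.79, adjusted p = 0.0186), among the fits that left out 1 library. Smad9 was too low to be tested.

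In chondrocyte cultures the oxygen differences were smaller, with 3 of 8 genes called higher and 2 lower (22.2% of all genes called, 10.4% higher and 11.8% lower). Smad9 was 2.19-fold higher at 0.5% O2 (log2 1.13 ± 0.10, SE, edgeR adjusted p = 1.75e-05) and Smad7 1.34-fold higher (0.42 ± 0.08). Bambi fell by 0.44 ± 0.11 on the log2 scale (adjusted p = 0.0111). Id2 was higher by 0.70 ± 0.17 (adjusted p = 0.0191), and missed the threshold without hypoxic replicate 2 or 3 (adjusted p = 0.0505 and 0.0708). Id1 fell by 0.34 ± 0.09, and missed it without normoxic replicate 2 or hypoxic replicate 1 or 3 (adjusted p 0.0677 to 0.0825). Id4 (0.37 ± 0.18) passed without normoxic replicate 4 (0.55, adjusted p = 0.00543), and Smad6 (0.38 ± 0.15) passed without normoxic replicate 1 or hypoxic replicate 1 (0.50 and 0.52). In the fit to all 8 groups the Smad9 call alone was kept, with adjusted p = 0.347 for Smad7, 0.488 for Bambi, 0.0706 for Id2 and 0.212 for Id1. The 5 chondrocyte markers summed to 2794 to 8415 CPM at 21% O2 and to 842 to 1255 CPM at 0.5% O2, and their part in these differences was not tested. Without hypoxic replicate 3, the genes called fell from 3157 to 2091 over all genes and from 5 to 3 among the 8.

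In osteoblast cultures the number of genes called depended on normoxic replicate 4. With all libraries, 4 of 8 genes were called higher at 0.5% O2 and none lower (54.3% of all genes called, 27% higher and 27.3% lower). These were Smad9 at 2.07 ± 0.33, Smad7 at 1.29 ± 0.35, Id1 at 0.78 ± 0.14 and Id3 at 0.74 ± 0.24 (SE) on the log2 scale (edgeR adjusted p = 0.00123, 0.0166, 0.00155 and 0.0306). The Id3 call was lost without any 1 of the 6 other libraries (adjusted p 0.0668 to 0.0762) and with library size scaling (adjusted p = 0.0796), but held without normoxic replicate 4. Without that replicate, 8 of 8 genes were called higher (65.6% of all genes called, 32.9% higher). The log2 differences were then 2.50 for Smad9, 1.75 for Smad7, 1.25 for Smad6, 1.05 for Id3, 1.03 for Bambi, 1.02 for Id2, 0.93 for Id1 and 0.57 for Id4. The Smad7 call with all libraries was lost without a filter (adjusted p = 0.0693). Beside these differences, the smooth muscle markers summed to 3065 to 4684 CPM at 21% O2 and to 1715 to 2005 CPM at 0.5% O2. The chondrocyte markers summed to 179 to 196 CPM in normoxic replicates 1 to 3, 1446 CPM in replicate 4 and 588 to 631 CPM at 0.5% O2, and the part of either list was not tested. For Bambi the hypoxic libraries (45.9 to 51.4 CPM) lay above normoxic replicates 1 to 3 (23.0 to 24.6 CPM) and below replicate 4 (103 CPM).

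In smooth muscle cultures 2 of 8 genes were called higher at 0.5% O2 and 5 lower (75.6% of all genes called, 35.4% higher and 40.2% lower). Smad7 was higher by 2.63 ± 0.29 (SE) on the log2 scale and Bambi by 1.51 ± 0.15 (edgeR adjusted p = 3.4e-05 and 2.65e-07). Smad9 was 14.9-fold lower and Smad6 3.61-fold lower, falling by 3.90 ± 0.54 and 1.85 ± 0.33 on the log2 scale. The Smad9 value rests on 12 counts in the hypoxic libraries and was -5.91 without hypoxic replicate 3. Id4, Id2 and Id3 fell by 1.40 ± 0.13, 1.02 ± 0.19 and 0.90 ± 0.09. Id1 (0.27 ± 0.12, adjusted p = 0.0538) passed without normoxic replicate 4 (0.34, adjusted p = 0.0227). Scaling by library size moved the median of all genes here from -0.12 to -1.49, turned Id1 to -1.10 and left Bambi at 0.15 (adjusted p = 0.399), with 1 gene called higher and 6 lower, near the balance of all genes there (86% called, 13.4% higher). Hypoxic smooth muscle libraries are those with many mitochondrial ribosomal RNA counts and few smooth muscle marker counts.

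**Figure D4:**
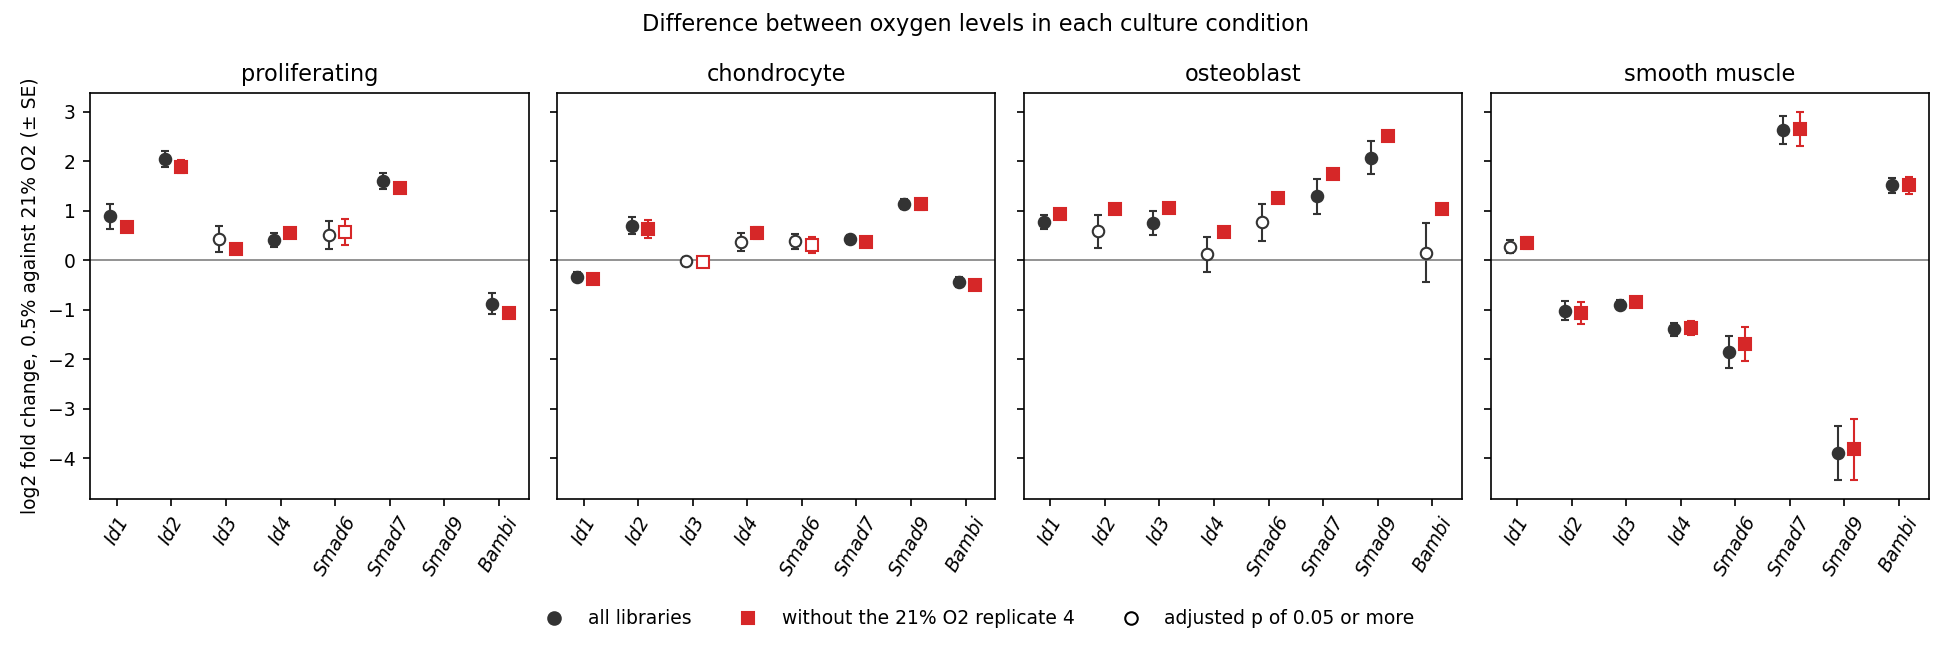
Log2 fold change of 0.5% against 21% O2 (y axis, bars are SE) for each gene (x axis) in the 4 culture conditions, with all libraries (circles) and without replicate 4 of the normoxic group (squares). Filled symbols have an adjusted p under 0.05, and Smad9 was not tested in proliferating cells. In osteoblast cultures 4 circles and 8 squares are filled, and in smooth muscle cultures the values range from -3.90 (Smad9) to 2.63 (Smad7) with all libraries.

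Whether the change from the proliferating state itself differed between oxygen levels was tested with an interaction term. In chondrocyte cultures 3 of 8 genes had a smaller rise at 0.5% O2 and 1 a larger one (43.5% of all genes called, 21.6% higher and 21.9% lower). The hypoxic change minus the normoxic one was -1.32 ± 0.25 for Id2, -1.21 ± 0.28 for Id1 and -1.17 ± 0.20 (SE) for Smad7 (edgeR adjusted p = 4.9e-04, 0.00338 and 2.22e-04). Each of these genes was higher in hypoxic than in normoxic proliferating cells, as given above. Smad9 had 0.89 ± 0.33 (adjusted p = 0.0371), which missed the threshold without any 1 of 7 libraries (adjusted p 0.0516 to 0.152), with library size scaling, in DESeq2, in limma-voom and in the fit to all 8 groups. Bambi had 0.45 ± 0.25, which passed without normoxic proliferating replicate 4 (0.62, adjusted p = 0.00163). In osteoblast cultures only Id2 was called, at -1.42 ± 0.45 (54.2% of all genes called, 28.9% higher and 25.3% lower), and limma-voom did not call it (adjusted p = 0.0903). Without normoxic osteoblast replicate 4, Smad9 (2.30), Bambi (1.96) and Smad6 (0.76) were called as well (60.5% of all genes called), and Smad9 was called without hypoxic proliferating replicate 2 too (2.31). In smooth muscle cultures 2 of 8 had a higher and 5 a lower hypoxic change (70.4% of all genes called, 34.9% higher and 35.5% lower), from -4.12 ± 0.77 for Smad9 (-6.14 without hypoxic smooth muscle replicate 3) and -3.02 ± 0.28 for Id2 to 2.44 ± 0.25 for Bambi. That Smad9 term rests on 0 to 10 counts per hypoxic smooth muscle library. Normoxic and hypoxic proliferating libraries held 6 to 19 and 6 to 13 counts of it, so its size is imprecise. With library size scaling 1 gene was called higher and 6 lower, where 77.6% of all genes were called and 12.9% were higher. The Smad7 term in smooth muscle cultures, 1.07 ± 0.38 (adjusted p = 0.0248), missed the threshold without hypoxic proliferating replicate 3 (adjusted p = 0.0549) and turned to -0.26 with library size scaling (adjusted p = 0.564). The Id1 term, -0.57 ± 0.27, passed without normoxic proliferating replicate 1, 2 or 4 (-0.64, -0.67 and -0.37) and with library size scaling (-1.91).

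The media with BMP2 were then set against the media without it, as the mean of the chondrocyte and osteoblast groups minus the mean of the proliferating and smooth muscle groups. At 21% O2, 7 of 8 genes were higher and 1 lower (69.9% of all genes called, 35.1% higher and 34.8% lower). The log2 differences were 4.19 ± 0.21 for Smad9, 3.60 ± 0.24 for Smad6, 2.26 ± 0.21 for Id2, 1.94 ± 0.19 for Smad7, 1.60 ± 0.31 for Bambi, 1.57 ± 0.17 for Id3 and 1.47 ± 0.14 (SE) for Id1. Id2 was low only in proliferating cells: its means were 2.60 CPM there, 52.9 in smooth muscle, 42.6 in chondrocyte and 73.8 in osteoblast cultures. Bambi means were 24.1 CPM in proliferating, 9.32 in smooth muscle, 46.5 in chondrocyte and 43.5 in osteoblast cultures. Osteoblast replicate 4 held 103 CPM of Bambi, against 23.0 to 24.6 CPM in replicates 1 to 3. Id4 was lower by -0.46 ± 0.19 (edgeR adjusted p = 0.0466), a call that was lost without any 1 of 14 of the 16 libraries (adjusted p 0.0514 to 0.101). At 0.5% O2, 8 of 8 were higher (75.1% called, 38.7% higher and 36.3% lower), from 0.31 ± 0.11 for Id4 to 4.86 ± 0.25 for Smad6 and 7.64 ± 0.20 for Smad9. The Smad9 value was 8.64 without hypoxic smooth muscle replicate 3, and the Id4 call was lost in the fit to all 8 groups (adjusted p = 0.145). Beside that Id4 value stands the low level in hypoxic smooth muscle libraries (24.1 ± 5.05 CPM, SD, n = 3), while the mean in neither hypoxic group given BMP2 was above that in proliferating cells.

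Osteoblast and chondrocyte cultures, which differ in BMP2 dose, TGF-beta3, serum and culture format, were also compared directly. At 21% O2, 1 of 8 genes was higher in osteoblast cultures (Id4, log2 1.31 ± 0.33, SE) and 1 lower (Smad7, -0.89 ± 0.31), where 59.7% of all genes were called, 31.1% higher and 28.6% lower. The Smad7 call was lost without any 1 of 6 of the 8 libraries (edgeR adjusted p 0.0510 to 0.0814) and with library size scaling. That scaling called 2 genes higher (Id2 and Id4) and none lower, where 60.9% of all genes were called and 40% were higher. Id2 (0.81 ± 0.32, adjusted p = 0.0567) passed without chondrocyte replicate 1 or osteoblast replicate 2 or 3 (adjusted p 0.0410 to 0.0470). Without osteoblast replicate 4, 6 genes were called lower in osteoblast cultures (66.9% of all genes called): Smad7 (-1.34), Bambi (-0.95), Id3 (-0.86), Smad6 (-0.50), Id1 (-0.27) and Smad9 (-0.25). At 0.5% O2, 6 of 8 were higher in osteoblast cultures (57.6% of all genes called, 29% higher and 28.6% lower): Smad9 (1.08 ± 0.08), Id4 (1.02 ± 0.15), Id1 (0.97 ± 0.10), Id2 (0.67 ± 0.09), Bambi (0.49 ± 0.11) and Smad6 (0.34 ± 0.13). The Smad6 call was lost without chondrocyte replicate 1 or 3 or osteoblast replicate 1 or 2 (adjusted p 0.0833 to 0.131), and in the fit to all 8 groups Smad6, Bambi and Id2 were not called (adjusted p = 0.418, 0.325 and 0.0543). Whether the difference between the 2 media itself depended on oxygen was not tested.

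Over the 8 groups, the highest mean belonged to hypoxic osteoblast cultures for 6 of the genes, to hypoxic chondrocyte cultures for Smad7 and to hypoxic proliferating cells for Id4. The lowest belonged to normoxic proliferating cells for Id1, Id2, Id3, Smad6 and Smad9, to normoxic smooth muscle cultures for Smad7 and Bambi and to hypoxic smooth muscle cultures for Id4. Some of these places depend on the TMM scaling. With library size alone, hypoxic smooth muscle cultures had the lowest mean for Id1 (15.0 CPM, against 19.6 in normoxic proliferating cells), Id3 (49.0 against 63.6), Smad6 (2.23 against 2.64) and Smad9 (0.186 against 0.299). Hypoxic osteoblast cultures then had the highest mean for Smad7 (122 CPM, against 116 in hypoxic chondrocyte cultures), and normoxic osteoblast cultures for Bambi (48.3 against 47.6 in hypoxic ones). Of the 7 steps between neighbouring groups in that order, the libraries overlapped in 3 steps for Id2, Id3 and Smad9, in 4 for Id1 and in 5 for Id4, Smad6, Smad7 and Bambi. As a description over the 8 group means of log2(CPM + 1), which share scaling and control groups, Pearson's r between pairs of these genes lay between 0.396 and 0.986 (Smad6 with Smad9) for the 21 pairs without Id4. It lay between -0.418 and 0.048 for the 7 pairs with Id4. Among 10170 other genes with a group mean of at least 10 CPM, the pattern closest to Smad6 was that of Pqlc2 (r = 0.993), followed by the vitamin D receptor gene Vdr (0.990). Closest to Smad9 was Vegfc (0.991), closest to Id2 Klhl22 (0.989), closest to Id4 Mysm1 (0.976), closest to Smad7 Epb41l2 (0.970) and closest to Bambi Mcl1 (0.941). Atoh8, a known BMP target, was among the 3 closest to Id3 (0.980).

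The rest of the pathway was described from lists of ligands, receptors, signal carriers, antagonists, other targets, binding partners of ID proteins and TGF-beta responsive genes, 73 genes in all. In normoxic chondrocyte cultures 42 of the 61 tested were higher than in proliferating cells and 12 lower, with a median log2 fold change of 1.13, against 37.7% of all genes higher, 37.2% lower and a median of -0.0029. Of 8 ligands 3 were tested and 2 rose, Bmp4 (3.56) and Gdf5 (1.91). Of 11 receptors and co-receptors, 8 rose, among them the type I receptors Bmpr1b (3.57), Acvrl1 (2.41) and Acvr1 (2.03), and 3 fell, Rgma (-1.86), Acvr2b (-1.79) and Rgmb (-1.54). Of the 8 signal carriers and their regulators 4 rose and 2 fell: the ubiquitin ligase gene Smurf2 rose by 2.00, while Smad1 fell by 0.27 on the log2 scale. Of 10 antagonists tested 7 rose and 2 fell, with Nbl1 (6.54) and Chrdl1 (7.33) highest and Grem1 at -1.95. Of the 10 TGF-beta responsive genes 8 rose and 2 fell, with a median of 3.03, above the 2.56 of the 8 BMP genes, and with Pmepa1 at 5.83 and Ctgf at 5.73. In the media for which the labels name no TGF-beta3, the same list had 7 genes higher and 1 lower in normoxic osteoblast cultures (median 1.70; 40.9% of all genes higher, 37.8% lower) and 7 higher and 2 lower in smooth muscle cultures (median 0.58; 40.8% and 38.9%).

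Of the other BMP targets, 9 of the 11 tested rose and none fell in normoxic chondrocyte cultures (37.7% of all genes higher, 37.2% lower), and 8 of 11 rose and none fell in osteoblast cultures (40.9% and 37.8%). Hey1, a Notch and BMP target, went from 0.0135 ± 0.0269 to 75.5 ± 19.4 CPM (SD, n = 4 each) and Dlx5, a homeobox gene of bone formation, from 0 counts in any proliferating library to 44.9 ± 7.22 CPM in chondrocyte cultures. In normoxic smooth muscle cultures, 3 of the 8 tested rose (Atoh8 by 3.79, Msx1 by 1.48 and Tbx3 by 0.20) and 2 fell (Dlx2 and Hes1), a share near that of all genes (40.8% higher, 38.9% lower). Of the 8 ID partners tested, 4 rose and 3 fell in normoxic chondrocyte, 1 rose and 4 fell in osteoblast, and 2 rose and 2 fell in smooth muscle cultures. Among them Bhlhe40 rose in chondrocyte cultures (2.73), Twist2 fell in chondrocyte (-3.86), osteoblast (-2.43) and smooth muscle (-1.47) cultures at 21% O2, and Tcf3 fell in all 3 as well. At 0.5% O2, 9 of 12 other targets rose and 2 fell in chondrocyte cultures (34.9% of all genes higher, 34.6% lower), and 10 of 12 rose and 1 fell in osteoblast cultures (36.2% and 35.1%), with Atoh8 at 7.33 and 7.43. In hypoxic smooth muscle cultures 4 of 9 rose and 3 fell, again near the share of all genes (33.8% and 36.2%). Between oxygen levels, 26 of the 57 genes of all 7 lists that were tested were higher at 0.5% O2 and 15 lower in proliferating cells (33.1% of all genes higher, 32.3% lower), 8 and 16 of 62 in chondrocyte (10.4% and 11.8%), 18 and 17 of 62 in osteoblast (27% and 27.3%) and 18 and 32 of 59 in smooth muscle cultures (35.4% and 40.2%). In chondrocyte cultures, leaving out 1 library gave 11 to 26 genes of these lists called, beside 2091 to 3359 of all genes. Of the other BMP targets 3 were higher and 4 lower of 8 in proliferating, 1 and 3 of 12 in chondrocyte, 1 and 2 of 12 in osteoblast (median 0.47) and 3 and 4 of 10 in smooth muscle cultures. Among the single genes, Bmp2 itself was lower at 0.5% O2 in proliferating (-1.40) and osteoblast (-1.24) cultures, and the homeobox gene Msx1 was lower in all 4 conditions, furthest in osteoblast cultures (-4.04; 206 ± 29.2 CPM, SD, n = 4, against 12.5 ± 1.34, SD, n = 3). Bhlhe40, a basic helix-loop-helix repressor that responds to low oxygen, was higher in proliferating (3.09), osteoblast (4.63) and smooth muscle (3.22) cultures. These log2 values are from the same edgeR fits.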

How the data were processed

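RNA-seq counts per gene were deposited for 28 libraries, and the submitters' processing notes name HISAT2 2.0.5, StringTie 1.3.3b, featureCounts 1.5.0-p3 and mm10. Which annotation was used, and whether strand entered the counting, is not given in the sources used here. The authors' 10 deposited comparison tables give log2 fold changes for the same libraries, of which 80 values concern the 8 genes. All 60 of these for genes called here had the sign found here, and the largest difference was 0.21. A further 70 columns of per-sample values in those tables were not used. No pair of libraries held identical counts.

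Counts were fitted in R 4.3.3 with edgeR 4.0.16 (quasi-likelihood, robust, with statmod 1.5.0) on TMM-scaled libraries of the groups compared, after filterByExpr (minimum count 10, minimum total 15). P-values were adjusted by Benjamini-Hochberg over all genes tested, and a gene was called under 0.05. CPM were scaled with TMM over the 28 libraries. Total counts of 19869271 to 64693346 per library set the precision. Symbols and exon lengths came from GENCODE M21, which held 99.8% of the gene identifiers.

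The alternatives were library size scaling, DESeq2 1.42.0, limma-voom (limma 3.58.1), no filter, at least 10 counts in every library, 1 fit to all 8 groups, the replicate number as a block, and leaving out each library. A fit without replicate 4 was added after seeing the data. The 8 genes and all lists were chosen with earlier results of these data known. Other pathway genes were named by rule: those called with the largest change, up to 3 each way per list and comparison, with a mean of at least 10 counts in a group. For likeness of pattern the 3 genes with the highest r were taken, of which some are not reported here. In the test on simulated data, 80% of genes changed by 1 on the log2 scale were recovered for normoxic chondrocyte against proliferating cells (14360 genes, 5.46% of calls false), 74% for oxygen in osteoblast cultures (14533 genes, 9.6% false) and 59% for the osteoblast interaction (15486 genes, 2.82% false). Each simulation changed only 100 genes by 1 and 100 by 2 on the log2 scale. In the data 74.9%, 54.3% and 54.2% of all genes were called, so these rates describe the simulated setting only.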

Additional observations from a re-analysis of the deposited data

Results flagged for a closer look

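In 11 of the 32 groups of 4 libraries examined (8 genes in 4 normoxic groups), 1 library lay far from the other 3 by Dixon's criterion, which chance exceeds in about 1 of 20 groups. In every such case it was replicate 4. The 8 genes of a group share their 4 libraries, so the 32 are not independent and their number cannot be set against that rate. Replicate 4 of the normoxic osteoblast group was high for Id2 (132 CPM), Id3 (380), Id4 (140), Smad6 (133), Smad7 (90.6), Smad9 (40.3) and Bambi (103). Replicate 4 of the normoxic proliferating group was low for Id2 (1.65 CPM) and Smad7 (13.1) and high for Id4 (93.3). Replicate 4 of the normoxic chondrocyte group was high for Id4 (42.8 CPM).

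The change from proliferating cells differed between oxygen levels, by the interaction term, in 12 of 24 cases: 4 of 8 genes in chondrocyte, 1 of 8 in osteoblast and 7 of 8 in smooth muscle cultures, beside 43.5%, 54.2% and 70.4% of all genes. Its values (hypoxic minus normoxic log2 fold change) in chondrocyte cultures were -1.21 for Id1, -1.32 for Id2, -1.17 for Smad7 and 0.89 for Smad9. In osteoblast cultures it was -1.42 for Id2. In smooth muscle cultures it was -3.02 for Id2, -1.30 for Id3, -1.77 for Id4, -2.33 for Smad6, 1.07 for Smad7, -4.12 for Smad9 and 2.44 for Bambi.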

How the results depend on the processing

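Counts of all genes called stayed within 1.5 times the reported count in every comparison under the alternatives, except in hypoxic against normoxic chondrocyte cultures, where leaving out 1 library gave 2091 to 3359 genes. The number of the 8 genes called moved by more in 6 comparisons. For oxygen in proliferating cells it was 3 without a filter (41.1% of all genes called) and 3 in the fit to all 8 groups (49%). For oxygen in chondrocyte cultures it was 1 in the fit to all groups (18.4%) and 3 to 6 on leaving out 1 library. For oxygen in osteoblast cultures it was 2 without a filter (33.6% of all genes called) and 8 with replicates 1 to 3 alone (65.6%). On leaving out 1 library it was 3 to 8 there, beside 6618 to 9376 of all genes. For normoxic osteoblast against chondrocyte cultures it was 4 in DESeq2 (61.4% of all genes called), 1 without a filter (36.2%) and 4 in the fit to all groups (56.3%). It was 7 with replicates 1 to 3 alone (68.9%) and 1 to 7 on leaving out 1 library (7657 to 9736 of all genes). For the hypoxic pair it was 3 in the fit to all groups (51% of all genes called). For the osteoblast interaction it was 2 in DESeq2 (56.3% of all genes called), 0 in limma-voom (54.8%) and 2 in the fit to all groups (49.9%). It was 6 with replicates 1 to 3 alone (62.3%) and 1 to 4 on leaving out 1 library (7748 to 9297 of all genes). The cause was not tested.

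Library size scaling moved the median of all genes by over 0.1, to -0.35 for chondrocyte cultures at both oxygen levels, -0.08 for normoxic osteoblast, -0.23 for hypoxic osteoblast, -1.35 for hypoxic smooth muscle, -0.19 for oxygen in osteoblast and -1.49 in smooth muscle cultures, 0.19 and 0.10 for normoxic and hypoxic osteoblast against chondrocyte, -0.28 and 0.32 for the normoxic and hypoxic BMP2 media, and -0.12 and -1.37 for the osteoblast and smooth muscle interactions. It reversed Id4 in normoxic smooth muscle (0.0075), Id1 (-1.21), Id3 (-0.75), Smad6 (-0.65), Smad7 (-0.37) and Bambi (-0.14) in hypoxic smooth muscle, Id4 (-0.0446) and Bambi (-0.0213) for oxygen in osteoblast and Id1 (-1.10) in smooth muscle cultures. It also reversed Id1 (0.0453), Smad6 (0.15) and Bambi (0.10) in normoxic and Smad7 (0.0682) in hypoxic osteoblast against chondrocyte cultures, and the Smad7 interaction in smooth muscle (-0.26). Of the 64 group means of CPM it moved 22 by more than their SD, against 4 with DESeq2 size factors, and with TMM over the 25 libraries outside hypoxic smooth muscle 17 moved and 39 did not. Without a filter and in the fit to all groups, Id1 in hypoxic smooth muscle was -0.035 and -0.0558, and the Id4 chondrocyte interaction in the latter was 0.0321. Replicates 1 to 3 alone reversed Id4 (-0.17) and Bambi (-0.19) in normoxic osteoblast, both of which passed the test there, Id4 in normoxic smooth muscle (0.0423) and Smad9 in normoxic osteoblast against chondrocyte cultures (-0.26, adjusted p = 0.0484). They also reversed the interactions of Id4 in chondrocyte (0.0103) and of Id1 (0.28), Id4 (0.0521) and Smad7 (0.33) in osteoblast cultures, where Id1 and Smad7 passed the test (edgeR adjusted p = 0.0267 and 0.0273).

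Leaving out 1 library turned the sign of uncalled values over these ranges. Against proliferating cells, Id4 ranged from -0.33 to 0.31 and Bambi from -0.0214 to 1.12 in normoxic osteoblast, Id4 from -0.14 to 0.0652 in normoxic smooth muscle and from -0.25 to 0.0120 in hypoxic osteoblast, and Id1 from -0.0158 to 0.12 in hypoxic smooth muscle cultures. For oxygen, Id3 ranged from -0.0856 to 0.0928 in chondrocyte, and Id4 from -0.0282 to 0.57 and Bambi from -0.0684 to 1.03 in osteoblast cultures. For normoxic osteoblast against chondrocyte cultures Smad6 ranged from -0.50 to 0.13, Smad9 from -0.25 to 0.30 and Bambi from -0.95 to 0.14, and for the hypoxic pair Smad7 from -0.10 to 0.0771. For the interactions, Id4 ranged from -0.17 to 0.16 and Smad6 from -0.41 to 0.13 in chondrocyte, and Id1 from -0.17 to 0.13, Id4 from -0.40 to 0.21 and Smad7 from -0.43 to 0.20 in osteoblast cultures.

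The replicate numbers did not pair the libraries: in 12 comparisons the correlations of same-numbered libraries ran from -0.283 to 0.111, none had all pairs over 0.1, and in none did every library correlate best with its own number. With the replicate number as a block, 8 of the 8 genes were called for oxygen in osteoblast cultures (63.8% of all genes) and 2 for the osteoblast interaction (55%), and the other counts of the 8 genes stayed within 1.5 times.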
